A study of Mus musculus with 15 samples.

Results

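Brown fat from warm-housed mice that lack DJ-1 in that tissue was set against brown fat from control mice at room temperature, to see how far the first matched the second and where it differed. The comparison used 7 of the 15 libraries in the series, chosen by their genotype and housing labels alone. Of these, 3 came from knockouts (labelled BDJ1KO) kept at 29 °C, called the warm knockouts here (TN_KO), and 4 from flox mice kept at room temperature, called the controls (RT_WT). Housing lasted 8 weeks in every group. Genotype and housing change together between these groups, so their parts in any difference cannot be told apart. The 4 libraries from flox mice kept at 29 °C, called the warm controls (TN_WT), are given beside the comparison. The 4 from knockouts at room temperature (RT_KO) entered the shared filter on low counts, the scaling and the estimate of spread. The sources used here give neither the Cre driver of the knockout nor the age of the mice. The labels do not say that replicates were separate animals, so a p-value reflects how these libraries vary, which may be technical. Each library is bulk RNA from whole tissue, in which fewer cells of a type and less RNA per cell cannot be told apart.

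Brown adipose tissue burns fat and glucose to make heat. Noradrenaline from sympathetic nerves acts on beta-adrenergic receptors, cyclic AMP rises, lipases free fatty acids from the droplets, and Ucp1 in the inner mitochondrial membrane lets protons back in without ATP being made. Mice at ordinary room temperature are mildly cold and keep this program on, while housing near 29 °C removes most of the need for it and the tissue takes on features of white fat. DJ-1, encoded by Park7, is a small redox-sensitive protein known from inherited Parkinson disease. Chaperone-mediated autophagy, named in the title of the series, carries single proteins into lysosomes with Hspa8 as the chaperone and Lamp2 as the receptor.

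Levels are in CPM, counts per 1000000 of the scaled library size. Park7 was at 111, 108, 112 and 109 CPM in the controls and 35.2, 25.4 and 34.5 CPM in the warm knockouts, with no overlap (log2 fold change -1.79 ± 0.13 (SE), adjusted p = 2.6e-07). In the warm controls it was at 104 to 128 CPM. The targeted gene therefore went with the genotype labels. Estimated counts per library summed to between 23977447 and 26789258 in 14 libraries and to 38800962 in TN_KO1. The 6 brown adipocyte markers summed to 1.07% to 1.24% of all counts in the controls and to 1.09%, 1.30% and 1.09% in the warm knockouts (exact two-sided permutation test, p = 0.571, 0.610 after adjustment over 16 sums). These shares are of unscaled counts, and a p this high does not show that the sums match. Single markers can differ under a like sum: Elovl3, which is among the 6, was lower in the warm knockouts (log2 fold change -2.43). Of the 8 epithelial genes in the file none passed the filter on low counts, and they summed to at most 0.000111% of counts in any of the 15 libraries.

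Skeletal muscle transcripts set libraries TN_KO2 and TN_KO3 apart. The 31 muscle genes made up 0.00564% to 0.00833% of counts in the controls, and 0.0101%, 0.0962% and 0.324% in TN_KO1, TN_KO2 and TN_KO3. The warm control TN_WT2 carried them as well, at 0.283%. Myosin heavy chain 4 (Myh4), a fast muscle myosin, was at 0 CPM in all 4 controls and at 0.808, 126 and 479 CPM in the warm knockouts. Skeletal actin (Acta1) was at 0.165, 0.0429, 0.210 and 0.173 CPM in the controls and 2.66, 108 and 302 CPM in the warm knockouts. Creatine kinase M (Ckm) was at 0.621, 0, 0 and 0.0433 CPM and 1.14, 63.6 and 190.2 CPM in the same order. Atp2a1, the calcium pump of fast muscle, was at 0.428, 58.01 and 306 CPM in the warm knockouts and Tnnt3, a troponin, at 1.81, 57.6 and 182 CPM. The 3 knockout libraries carried very unequal amounts, with TN_KO3 the highest. TN_KO1 had far less than the other 2 but was not free of them: 6 defining muscle genes made up 0.00105% of its counts and 7.6e-05% to 0.000125% in the controls. With all libraries, 19 of 31 muscle genes were called higher, but Myh4 and Ckm were not. With TN_KO1 as the only warm knockout none was, but when TN_WT2 was left out as well 7 of the 21 then tested were, Myh4 among them (log2 fold change 7.35, adjusted p = 0.002). Without TN_KO3 alone 3 were, and without any one control library 4 to 7 were. Muscle precursor regulators Myf5, Myod1, Myog, Pax3 and Pax7 did not pass the filter on low counts. For many of the lists below the counts are also given with TN_KO1 as the only warm knockout library, a fit in which that library is assumed to vary like the other groups and in which fewer genes can be called; the part of muscle transcripts in those results was otherwise not tested. In that fit 23 genes named here lost their call: ATP6, Acta1, Apoe, Asb5, Atp2a1, Atp2a2, COX2, Cd79a, Cryab, Ctsd, Elovl3, Eno3, Fasn, Hspa1a, Hspb1, Lpl, Mybpc2, Ngfr, Pygm, Retn, Ryr1, Slc2a5 and Tnnt3.

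**Figure D1:**
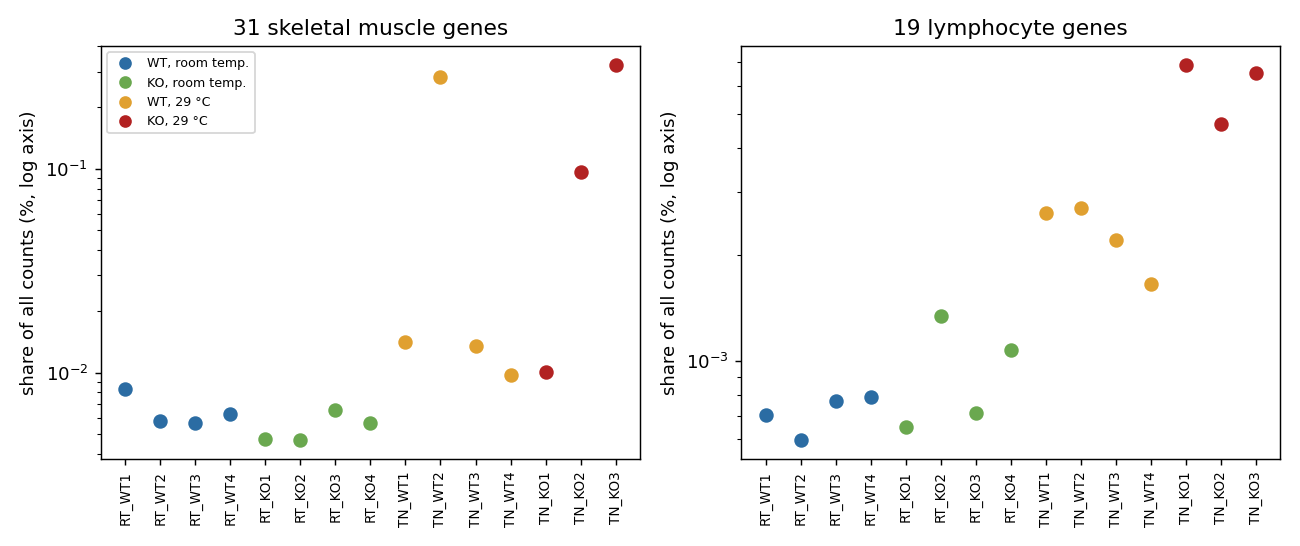
Share of all counts (percent, log axis) taken by 31 skeletal muscle genes (left) and 19 lymphocyte genes (right) in each of the 15 libraries, coloured by group. Muscle genes stand out in TN_KO2, TN_KO3 and TN_WT2, whereas lymphocyte genes are above the controls in all 3 warm knockouts, at 0.00690%, 0.00469% and 0.00652%.

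Across the transcriptome fewer genes differed from the controls in the warm knockouts than in the warm controls. In edgeR's quasi-likelihood test of 15083 genes, 6582 (43.6%) differed between warm knockouts and controls at an adjusted p under 0.05; 3476 (23%) were higher and 3106 (20.6%) lower. These differences are called rises and falls from here on. For 5138 genes (34.1%) the 95% interval of the fold change lay wholly within 1.5-fold either way, which is called a match here; 763 of them were also called, since a small difference can be precise. Another 4126 genes were neither called nor matched. A fold over 2 was reached by 2313 called genes, 1747 of them higher and 566 lower. Set against the same controls, the warm controls differed in 10375 genes (68.8%), of which 5421 (35.9%) were higher and 4954 (32.8%) lower, and matched in 3282 (21.8%). The 2 comparisons share the 4 control libraries, so their values are shown side by side and the difference between them was not tested here. They rest on 3 warm knockout and 4 warm control libraries, so their power to call a gene differs. With TN_KO1 as the only warm knockout, 3804 genes were called, 2147 higher and 1657 lower.

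Distances between single libraries gave the same order. The distance of a pair was the median absolute difference in log2 CPM over the tested genes. Control libraries lay 0.154 to 0.182 from each other and the warm knockouts 0.197 to 0.260 from each other. From controls to warm knockouts the 12 pairs spanned 0.355 to 0.514, with a median of 0.407. Every one of them was shorter than every pair of a control and a warm control, which spanned 0.649 to 0.757 around a median of 0.707. Warm knockouts and warm controls were 0.358 to 0.523 apart, with a median of 0.463, a range that overlaps that between knockouts and room-temperature controls.

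**Figure D2:**
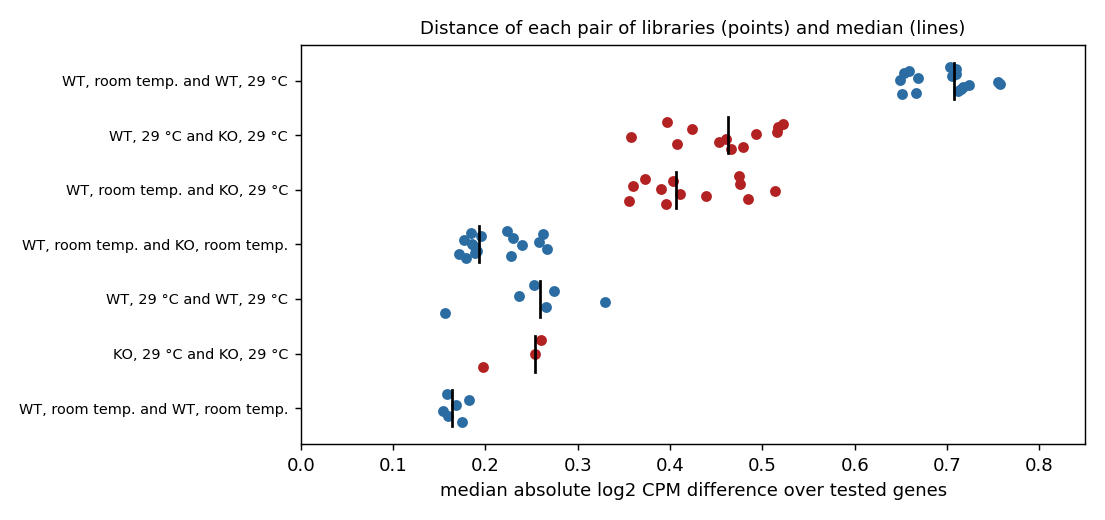
Median absolute log2 CPM difference over the tested genes (x axis) for each pair of libraries (points), by pair of groups, with the median of the pairs (lines). Pairs with a warm knockout library are red; those with a control lie between 0.355 and 0.514, below all pairs of a control and a warm control.

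Several gene sets discussed below carry known promoter elements, and 5 promoters are shown because their genes stand for the different outcomes. Each window runs from 250 bases before to 50 bases after the gene start, as RefSeq gives it on GRCm38.p6, and is written 5′ to 3′ on the gene's strand, with matches to 1 motif in capitals. Capitals mark the E-box (CACGTG) in Ciart, Lamp1 and Ctsd. They mark the core of a heat-shock element (GAANNTTC, which reads the same on either strand) in Hspb1 and Tap1.
Ciart, a clock repressor that fell, chr3:95882179-95882478, minus strand: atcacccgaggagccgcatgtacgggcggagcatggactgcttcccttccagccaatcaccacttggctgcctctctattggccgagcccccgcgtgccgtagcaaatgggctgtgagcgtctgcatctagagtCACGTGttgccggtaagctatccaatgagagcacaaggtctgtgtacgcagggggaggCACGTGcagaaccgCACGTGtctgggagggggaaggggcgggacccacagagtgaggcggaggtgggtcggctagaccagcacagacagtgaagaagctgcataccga
Lamp1, a lysosomal membrane protein that matched, chr8:13158911-13159210, plus strand: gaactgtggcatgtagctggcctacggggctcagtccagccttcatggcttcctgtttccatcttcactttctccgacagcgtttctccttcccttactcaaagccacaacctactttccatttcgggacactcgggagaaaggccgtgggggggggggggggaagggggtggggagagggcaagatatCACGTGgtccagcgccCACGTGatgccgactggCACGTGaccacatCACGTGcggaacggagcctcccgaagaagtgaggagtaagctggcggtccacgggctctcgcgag
Ctsd, a lysosomal protease that fell, chr7:142387778-142388077, minus strand: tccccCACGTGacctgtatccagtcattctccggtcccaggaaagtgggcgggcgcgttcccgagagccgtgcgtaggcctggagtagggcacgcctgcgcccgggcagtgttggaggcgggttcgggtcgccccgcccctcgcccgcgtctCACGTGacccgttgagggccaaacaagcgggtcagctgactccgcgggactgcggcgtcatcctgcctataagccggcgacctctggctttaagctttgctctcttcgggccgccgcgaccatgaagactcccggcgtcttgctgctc
Hspb1, a small heat-shock protein that rose, chr5:135887669-135887968, plus strand: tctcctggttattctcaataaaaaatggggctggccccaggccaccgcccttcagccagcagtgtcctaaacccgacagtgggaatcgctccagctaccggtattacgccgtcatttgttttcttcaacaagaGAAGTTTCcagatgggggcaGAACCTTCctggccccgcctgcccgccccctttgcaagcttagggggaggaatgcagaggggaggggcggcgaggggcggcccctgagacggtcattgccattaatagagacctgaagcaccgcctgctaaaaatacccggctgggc
Tap1, a peptide transporter subunit that rose, chr17:34187306-34187605, plus strand: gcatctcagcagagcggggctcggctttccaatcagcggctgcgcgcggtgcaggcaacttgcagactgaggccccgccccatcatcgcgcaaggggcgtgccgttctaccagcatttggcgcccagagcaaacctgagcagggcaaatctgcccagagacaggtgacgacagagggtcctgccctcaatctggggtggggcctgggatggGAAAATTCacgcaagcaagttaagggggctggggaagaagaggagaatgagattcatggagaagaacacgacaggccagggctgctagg
The E-box, bound by clock activators and by lysosomal regulators such as TFEB, occurred 3 times in the window of Ciart, 4 times in that of Lamp1 and 2 times in that of Ctsd. It was present for 10 of 23 lysosomal genes with a window (43.5%), for 4 of 10 circadian output and repressor genes (40%) and for 8.09% of all 27025 genes. The heat-shock element core was found for 9 of 14 heat-shock genes (64.3%), against 9.04% of all genes. For the antigen presentation list, which holds Tap1, it was found for 3 of 16 genes (18.8%). The Tap1 window overlaps that of Psmb9 (chr17:34187281-34187580, minus strand), which is read in the other direction, and the single core lies in the shared stretch. A match to these letters describes the sequence and shows no binding.

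Ucp1 was not called in the warm knockouts, whereas 14 of 29 heat-producing genes fell. Ucp1, the uncoupling protein itself, was at 8008, 8717, 7689 and 9992 CPM in the controls and 6933, 8596 and 6170.4 CPM in the warm knockouts. The groups overlapped (log2 fold change -0.25 ± 0.23 (SE), adjusted p = 0.41), and the 95% interval, -0.74 to 0.24, reached beyond 1.5-fold lower, so a match was not shown either. In the warm controls Ucp1 was at 839 to 1277 CPM (log2 fold change -3.08), below every warm knockout. Dio2 and Ppargc1a varied widely between libraries. Dio2, which makes active thyroid hormone, was at 232, 531, 357 and 434 CPM in the controls and 179, 347 and 321 CPM in the warm knockouts. Ppargc1a, a master coactivator of mitochondrial genes, was at 45.8, 109, 44.2 and 69.5 CPM in the controls and 31.4, 26.6 and 65.9 CPM in the warm knockouts. Neither was called (adjusted p = 0.62 and 0.2). Cidea, a lipid droplet protein typical of brown fat, was at 2227, 2123, 2289 and 2170 CPM in the controls and 1851, 1698 and 1607 CPM in the warm knockouts, without overlap but not called (log2 fold change -0.36 ± 0.19, adjusted p = 0.14). It was called when only the 7 libraries compared were fitted (adjusted p = 0.0089) and with the replicate number as a block (adjusted p = 0.038). The nuclear receptors Ppara and Esrrg, which drive fat-burning genes, matched, with log2 fold changes of -0.02 and 0.03.

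In all, 14 of 29 heat-producing genes fell, 1 rose and 14 were not called; 3 matched. Their median log2 fold change was -0.53, against 0.045 over all genes tested. For the warm controls 26 fell, with a median of -1.52. With TN_KO1 alone 11 fell, with a median of -0.64. Letmd1, a mitochondrial inner membrane protein needed for thermogenesis, was at 837, 872, 848 and 891 CPM in the controls and 344, 392 and 305 CPM in the warm knockouts, a fall of 2.48-fold (log2 fold change -1.31 ± 0.10 (SE), adjusted p = 4.0e-07). Otop1, a proton channel, was at 269.8, 304, 266 and 295 CPM in the controls and 89.5, 139 and 93.8 CPM in the warm knockouts (log2 fold change -1.40 ± 0.14 (SE), adjusted p = 2.1e-06). Kcnk3, a potassium channel of brown adipocytes, was at 518, 590.05, 527 and 637 CPM in the controls and 239.98, 313 and 241 CPM in the warm knockouts (log2 fold change -1.10 ± 0.13 (SE), adjusted p = 1.0e-05). All 3 genes were well separated, with every warm knockout below every control.

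Pm20d1, a secreted enzyme that makes N-acyl amino acids, fell too (log2 fold change -1.47 ± 0.17 (SE), adjusted p = 6.9e-06). Irf4, a transcription factor induced by cold and fasting, was at 131, 93.3, 92.4 and 91.9 CPM in the controls and 6.20, 21.5 and 4.85 CPM in the warm knockouts, and TN_KO2 was the highest of the 3 (log2 fold change -3.25 ± 0.77 (SE), adjusted p = 0.0053). Elovl3, a fatty acid elongase among the most cold-responsive genes of brown fat, was at 56.7, 52.3, 89.7 and 48.9 CPM in the controls and 13.2, 5.26 and 15.8 CPM in the warm knockouts (log2 fold change -2.43 ± 0.66 (SE), adjusted p = 0.011). Elovl3 in the warm controls was at 0.588 to 3.35 CPM (log2 fold change -5.29). Ebf2, which specifies brown fat cells, fell (log2 fold change -0.68 ± 0.13 (SE), adjusted p = 5.9e-04).

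**Figure D3:**
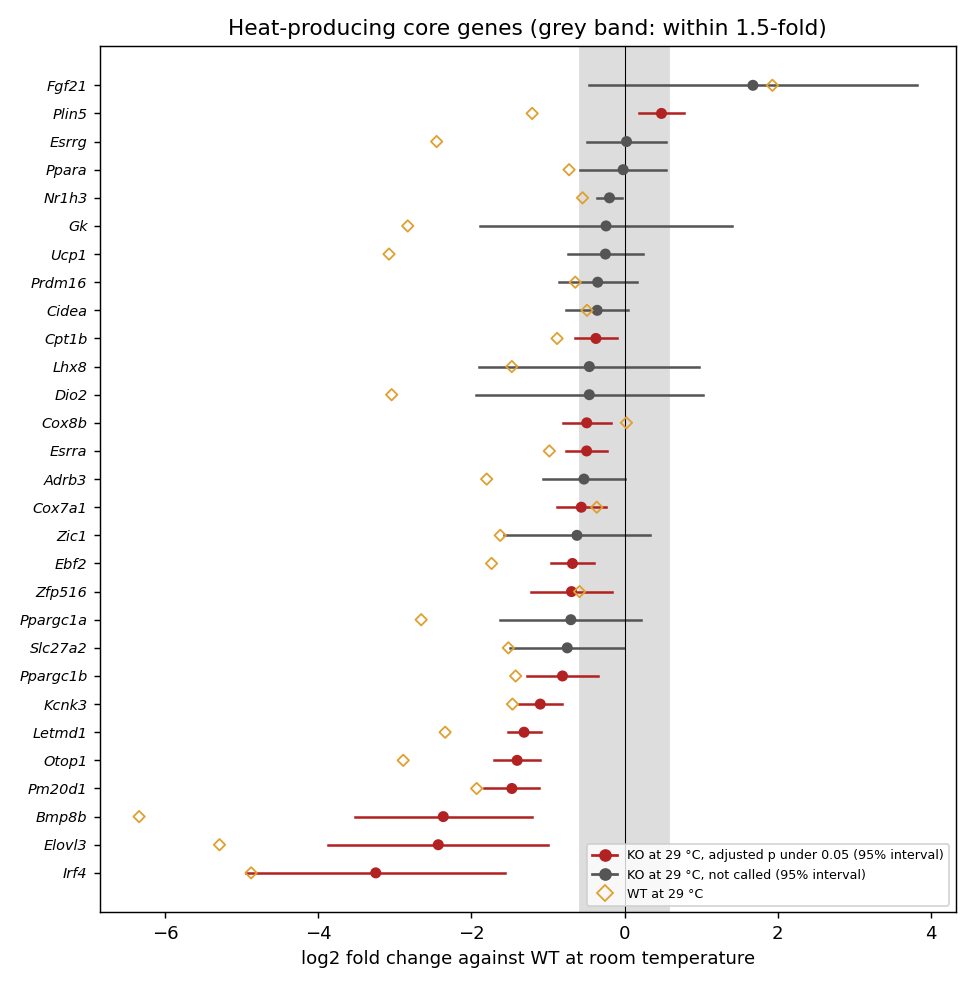
Log2 fold change of the 29 heat-producing genes in the warm knockouts against the controls (points) with 95% intervals (bars), red where called and grey where not; open diamonds give the warm controls against the same controls. The grey band spans 1.5-fold either way. Ucp1 lies at -0.25 in the warm knockouts and at -3.08 in the warm controls, and Elovl3 at -2.43 and -5.29.

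Genes of the other, Ucp1-independent routes of heat production did not move as a group. Of 11 tested creatine and calcium cycling genes, 3 rose and 1 fell, against 23% and 20.6% of all genes tested. Slc6a8, the creatine importer, was at 20.5, 19.6, 20.4 and 22.9 CPM in the controls and 37.6, 37.8 and 33.9 CPM in the warm knockouts (log2 fold change 0.80 ± 0.11 (SE), adjusted p = 4.4e-05). Creatine kinase B (Ckb) was at 35.3, 25.04, 20.9 and 40.00 CPM in the controls and 25.4, 28.5 and 29.9 CPM in the warm knockouts, with overlap (log2 fold change -0.12 ± 0.25 (SE), adjusted p = 0.73), whereas the warm controls had 71.9 to 119.8 CPM. The calcium pump Atp2a2 fell slightly (log2 fold change -0.39 ± 0.11 (SE), adjusted p = 0.011). The other 2 rises, Atp2a1 and Ryr1, are genes of muscle calcium release and uptake. Both calls were also lost without any single control library or without TN_KO3 (adjusted p from 0.055 to 0.083 for Atp2a1 and from 0.074 to 0.14 for Ryr1).

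In lipolysis one of the main lipases matched the controls, while some genes of cyclic AMP signalling and the last lipase of the pathway fell. Hormone-sensitive lipase (Lipe) was at 1287, 1357, 1272 and 1389.7 CPM in the controls and 1239.5, 1440.4 and 1035 CPM in the warm knockouts and matched (log2 fold change -0.10 ± 0.13). In the warm controls it was at 410.2 to 563 CPM (log2 fold change -1.41). The glycerol channel Aqp7 matched (-0.01), as did the phosphodiesterase Pde4b (-0.08). Monoglyceride lipase (Mgll), which ends triglyceride breakdown, was at 766, 896, 892 and 792 CPM in the controls and 345, 415 and 375 CPM in the warm knockouts, below the controls in every library (log2 fold change -1.15 ± 0.13 (SE), adjusted p = 5.6e-06). The cyclic AMP-dependent kinase subunits Prkaca and Prkar2b were at 200.3, 243 and 189 CPM and 902, 1075 and 811 CPM in the warm knockouts, against 380.1, 361, 339.9 and 371 and 1714, 1867, 1760.2 and 1691 CPM in the controls. Both fell, with log2 fold changes of -0.79 ± 0.09 and -0.92 ± 0.12 (adjusted p = 9.5e-06 and 2.5e-05). Soluble adenylyl cyclase (Adcy10) was at 7.32, 9.41, 5.42 and 9.48 CPM in the controls and 0.547, 1.35 and 0.797 CPM in the warm knockouts (log2 fold change -3.17 ± 0.34 (SE), adjusted p = 4.4e-06). Of 20 genes 10 fell, none rose and 4 matched (median -0.47); in the warm controls 15 fell (median -1.43).

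The main droplet coat and Dgat2 matched, while several other genes of glycerolipid synthesis fell. Perilipin 1 (Plin1), which coats droplets and gates lipolysis, was at 645, 699.6, 668 and 653 CPM in the controls and 599.8, 728 and 544 CPM in the warm knockouts (log2 fold change -0.10 ± 0.13), and Dgat2, which adds the last fatty acid, at 2228, 2005, 1991 and 2213 CPM in the controls and 2262, 2362 and 1753 CPM in the warm knockouts (0.01 ± 0.16). Both sets of values overlapped, both genes matched, and in the warm controls they lay lower, at 132 to 188 CPM and 672 to 1050.2 CPM. Agpat2, an acyltransferase early in the pathway, was at 1756, 1542, 1479 and 1951 CPM in the controls and 493, 591 and 452 CPM in the warm knockouts (log2 fold change -1.72 ± 0.22 (SE), adjusted p = 2.7e-05). Gpam, which takes the first step, seipin (Bscl2) and Mogat1 fell, with log2 fold changes of -1.20 ± 0.12, -1.02 ± 0.11 and -2.60 ± 0.27 (adjusted p = 2.6e-06, 3.2e-06 and 2.7e-06). Over the 19 genes 6 fell, 3 rose and 6 matched, with a median of -0.13 (-0.16 with TN_KO1 alone). Over all genes tested 20.6% fell, 23% rose and 34.1% matched. The warm controls had 14 falls and a median of -1.40.

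Fatty acid synthesis was the metabolic group that departed most from the controls by its median. Fasn, fatty acid synthase, was at 22142, 21389, 17703 and 23843 CPM in the controls and 2324, 2019 and 1573 CPM in the warm knockouts (log2 fold change -3.43 ± 0.65 (SE), adjusted p = 0.0011). Acly, which supplies acetyl-CoA, was at 4120.1, 3369.7, 2090.2 and 4467 CPM in the controls and 340.4, 333 and 197 CPM in the warm knockouts (log2 fold change -3.60 ± 0.55 (SE), adjusted p = 2.4e-04). Elovl6, which elongates its product, was at 889.6, 917, 804 and 951 CPM in the controls and 137, 123 and 136 CPM in the warm knockouts (log2 fold change -2.75 ± 0.23 (SE), adjusted p = 9.8e-07). For all 3 of these genes every warm knockout lay below every control. Acacb, a carboxylase that makes malonyl-CoA, the citrate carrier Slc25a1 and Elovl5 fell, with log2 fold changes of -1.96 ± 0.28, -2.25 ± 0.29 and -1.44 ± 0.13 (adjusted p = 6.8e-05, 3.4e-05 and 1.2e-06). Srebf1, the transcription factor of this pathway, was not called and overlapped, at 342, 293, 252 and 215 CPM in the controls and 274, 401 and 161 CPM in the warm knockouts (log2 fold change 0.02 ± 0.30 (SE), adjusted p = 0.97). The desaturase Fads2 was not called either (log2 fold change -0.29 ± 0.30). Of 19 genes 14 fell and none rose (median -1.44); with TN_KO1 alone 11 fell (median -1.53). Warm controls had 15 falls and 2 rises (median -1.79), and Fasn was at 321 to 2169 CPM.

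Of 15 lipid uptake genes 7 fell and 2 rose, against 20.6% and 23% of all genes tested. Their median was -0.06, and -0.08 with TN_KO1 alone. The fatty acid transporter Cd36 matched at 1879.9, 1944, 1799.7 and 1712 CPM in the controls and 1734, 1983 and 1687 CPM in the warm knockouts (log2 fold change -0.03 ± 0.12). Slc27a1, another importer, was at 190.5, 225, 253 and 210.5 CPM in the controls and 101, 107 and 108 CPM in the warm knockouts (log2 fold change -1.06 ± 0.13 (SE), adjusted p = 1.1e-05). Lipoprotein lipase (Lpl) was at 6160, 5707, 6204 and 6005 CPM in the controls and 3610.3, 5003 and 4092 CPM in the warm knockouts. Its fall (log2 fold change -0.51 ± 0.20 (SE), adjusted p = 0.047) was not called without any single control library, without TN_KO1, without TN_KO3 or without TN_WT4, where the adjusted p was between 0.051 and 0.17. Gpihbp1, which carries that lipase on capillary walls, was at 43.3, 43.6, 49.7 and 56.5 CPM in the controls and 80.8, 63.04 and 84.6 CPM in the warm knockouts and rose (log2 fold change 0.66 ± 0.13 (SE), adjusted p = 7.2e-04). Angptl4, an inhibitor of the lipase, matched (0.21), and Apoe rose (log2 fold change 0.64 ± 0.15 (SE), adjusted p = 0.0023).

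Of 23 glycolysis genes 16 fell and 2 rose (median -0.79); with TN_KO1 alone 10 fell (median -0.85), and in the warm controls 21 fell (median -1.60). Liver-type phosphofructokinase (Pfkl) was at 882, 943, 725 and 963 CPM in the controls and 344, 396 and 297 CPM in the warm knockouts (log2 fold change -1.34 ± 0.13 (SE), adjusted p = 2.1e-06). Lactate dehydrogenase A (Ldha) was at 2048, 1874, 1893 and 2031 CPM in the controls and 995, 930.1 and 779 CPM in the warm knockouts (log2 fold change -1.12 ± 0.11 (SE), adjusted p = 2.5e-06), and Pgk1 fell, with a log2 fold change of -1.05 ± 0.09 (adjusted p = 1.2e-06). Every warm knockout was below every control for these 3. Both hexokinases, which trap glucose in the cell, matched, Hk2 at 427, 452, 311 and 470.2 CPM in the controls and 359, 482 and 368 CPM in the warm knockouts (log2 fold change -0.04 ± 0.18) and Hk1 at 0.12. Hk2 was at 110.3 to 171 CPM in the warm controls. One of the 2 rises was Eno3, the muscle enolase, at 10.03, 36.8 and 71.4 CPM in the warm knockouts.

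Of 15 glycogen genes 9 fell and 1 rose (median -0.69, warm controls -1.77; 6 fell and none rose with TN_KO1 alone). Glycogen synthase 1 (Gys1) was at 292, 322, 295 and 308 CPM in the controls and 112, 137 and 93.4 CPM in the warm knockouts (log2 fold change -1.41 ± 0.12 (SE), adjusted p = 7.2e-07). The liver-type phosphorylase Pygl was at 1098, 1147, 877 and 1165 CPM in the controls and 273, 331 and 209 CPM in the warm knockouts (log2 fold change -1.98 ± 0.21 (SE), adjusted p = 4.9e-06). Gys2 and the branching enzyme Gbe1 fell, with log2 fold changes of -1.51 ± 0.22 and -1.27 ± 0.13 (adjusted p = 7.3e-05 and 3.0e-06). The brain-type phosphorylase Pygb and the targeting subunit Ppp1r3c matched (-0.04 and 0.22), and the single rise was Pygm, the muscle phosphorylase, at 4.68, 23.9 and 80.6 CPM in the warm knockouts.

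**Figure D4:**
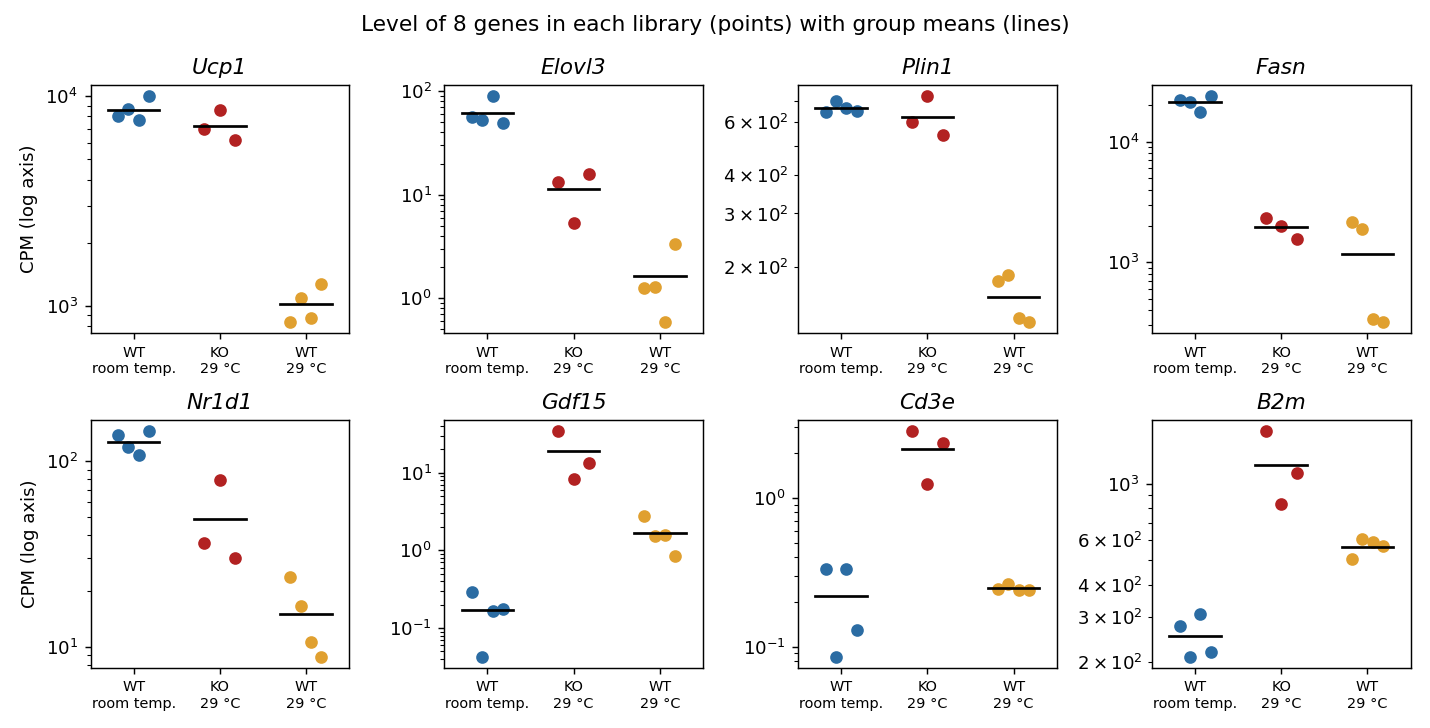
CPM (log axis) of 8 genes in each library (points) with group means (lines) for controls, warm knockouts and warm controls. Ucp1 and Plin1 of the warm knockouts overlap the controls, Elovl3, Fasn and Nr1d1 lie below them, and Gdf15, Cd3e and B2m above them.

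Many mitochondrial genes fell, most of them by modest amounts. In the citric acid cycle 15 of 18 genes fell and 1 rose (median -0.56; with TN_KO1 alone 9 fell, median -0.47). Dlst, a subunit of the 2-oxoglutarate dehydrogenase complex, was at 1447, 1535, 1465 and 1467 CPM in the controls and 628, 696 and 542 CPM in the warm knockouts (log2 fold change -1.25 ± 0.10 (SE), adjusted p = 5.9e-07), and its partner Ogdh fell, with a log2 fold change of -0.94 ± 0.10 (adjusted p = 3.6e-06). Idh2, the mitochondrial isocitrate dehydrogenase that makes NADPH, went the other way, at 248, 259, 266 and 249 CPM in the controls and 505, 469 and 384 CPM in the warm knockouts (log2 fold change 0.83 ± 0.11 (SE), adjusted p = 1.7e-05). Fumarase (Fh1) and the succinate dehydrogenase subunit Sdhb matched (log2 fold change -0.08 and -0.06), while in the warm controls they were at -0.99 and -0.47. Of these genes 17 fell in the warm controls (median -1.13).

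Fatty acid oxidation showed 18 of 24 genes lower, 1 higher and 7 matched, with a median of -0.51 (14 lower and -0.52 with TN_KO1 alone). Acsl5, which activates fatty acids, had the deepest fall, at 805, 643, 606 and 749 CPM in the controls and 112, 97.98 and 95.3 CPM in the warm knockouts (log2 fold change -2.78 ± 0.24 (SE), adjusted p = 1.2e-06). Hadha, part of the trifunctional enzyme of beta-oxidation, was at 2103, 2363, 2118 and 2122 CPM in the controls and 1048, 1266 and 893 CPM in the warm knockouts (log2 fold change -1.03 ± 0.11 (SE), adjusted p = 4.4e-06). Cpt2 and the carnitine carrier Slc25a20 fell, with log2 fold changes of -0.96 ± 0.12 and -0.82 ± 0.12 (adjusted p = 1.0e-05 and 6.3e-05). Etfb, an electron carrier, and the thioesterase Acot2 matched, with log2 fold changes of -0.19 and 0.16. The warm controls had 21 lower and a median of -1.22.

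The respiratory chain divided between matches and small falls. Of 46 nuclear subunit genes 31 fell, 1 rose and 21 matched; genes can be both called and matched. The median was -0.38, close to -0.44 in the warm controls, where 29 fell. Without TN_KO3 20 fell, and with TN_KO1 alone 9 fell (median -0.25). The complex III genes Uqcr10 and Uqcrfs1 were at 256, 199 and 172 CPM and 675, 667 and 551 CPM in the warm knockouts, against 371, 369.7, 387 and 411 and 1045, 1068, 1073 and 1076 CPM in the controls. They fell, with log2 fold changes of -0.88 ± 0.13 and -0.76 ± 0.09 (adjusted p = 7.8e-05 and 9.2e-06), while Uqcr10 in the warm controls was at 307 to 433 CPM, which overlapped the controls. Atp5j, an ATP synthase subunit, and Ndufs7, of complex I, matched (log2 fold change -0.02 and 0.06).

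The 13 genes of the mitochondrial DNA accounted for 25.2% to 27.4% of all counts in the controls and 26.6%, 25.8% and 26.9% in the warm knockouts (exact two-sided permutation test, p = 0.800). The warm controls lay higher, at 30.2% to 41.6%. These shares are of unscaled counts, whereas the CPM of single genes use the scaled library size. The scaling factors were 0.878 to 0.912 in the controls and 1.08 to 1.18 in the warm knockouts. An unchanged share therefore reads as a lower CPM in the warm knockouts, and a matched CPM as a higher share. Single genes moved unequally: COX1 matched (log2 fold change 0.02 ± 0.17), and 7 of 13 fell, with a median of -0.55 (1 fell with TN_KO1 alone, median -0.49). COX2 was at 39418, 40783, 44767 and 42387 CPM in the controls and 28093, 27063 and 25611 CPM in the warm knockouts (log2 fold change -0.64 ± 0.14 (SE), adjusted p = 0.0015). ATP8 had the deepest fall (log2 fold change -1.96 ± 0.24 (SE), adjusted p = 1.8e-05), but it overlaps ATP6, which fell, with a log2 fold change of -0.55 ± 0.14, and reads in the overlap may be shared out either way. With TN_KO1 alone 1 of the 13 fell. Upkeep genes of the organelle fell in 11 of 19 cases and matched in 9 (median -0.33, warm controls -0.95; 7 fell with TN_KO1 alone). Polrmt, the mitochondrial RNA polymerase, was at 47.99, 45.3, 41.6 and 45.9 CPM in the controls and 19.6, 28.1 and 21.3 CPM in the warm knockouts (log2 fold change -0.98 ± 0.12 (SE), adjusted p = 1.1e-05), and the fusion gene Mfn2 fell, with a log2 fold change of -0.79 ± 0.10 (adjusted p = 2.2e-05). Polg, the DNA polymerase, and the transcription factor Gabpa matched (-0.01 and -0.02).

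The clock genes did not shift as one. In the molecular clock Arntl, Clock and Npas2 activate E-box genes, whose products repress them in turn, so the levels depend on the hour of sampling, which the sources used here do not give. Arntl was at 4.38, 3.39, 5.67 and 4.50 CPM in the controls and 3.21, 4.40 and 7.52 CPM in the warm knockouts, with overlap (log2 fold change 0.16 ± 0.27 (SE), adjusted p = 0.67), but at 22.6 to 28.4 CPM in the warm controls (log2 fold change 2.51). Clock and Rora matched (-0.15 and -0.15). Npas2 was at 1.41, 1.29, 1.13 and 1.34 CPM in the controls and 0.119, 0.376 and 0.416 CPM in the warm knockouts (log2 fold change -2.14 ± 0.34 (SE), adjusted p = 1.1e-04), the opposite side of the controls from the warm controls at 4.05 to 5.88 CPM (log2 fold change 1.93). Among the 7 activators and evening-phase genes 1 rose and 2 fell, against 23% and 20.6% of all genes tested. Their median was -0.15, and -0.27 with TN_KO1 alone.

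Output and repressor genes fell in 5 of 12 cases, none rose and 3 matched (median -0.63; 3 fell with TN_KO1 alone). Nr1d1, the Rev-erb alpha repressor, was at 138, 119, 107 and 145 CPM in the controls and 36.2, 79.3 and 30.2 CPM in the warm knockouts, with TN_KO2 nearest to the controls (log2 fold change -1.39 ± 0.35 (SE), adjusted p = 0.0067). Nr1d2, its relative, was at 91.1, 108, 80.97 and 111 CPM in the controls and 56.2, 62.97 and 52.1 CPM in the warm knockouts (log2 fold change -0.78 ± 0.14 (SE), adjusted p = 3.4e-04). Ciart, whose promoter is shown above, was at 4.01, 5.20, 3.99 and 8.66 CPM in the controls and 1.85, 1.35 and 2.74 CPM in the warm knockouts (log2 fold change -1.46 ± 0.33 (SE), adjusted p = 0.0019). Tef, Hlf and Bhlhe41, further E-box or D-box partners of the clock, matched (-0.25, 0.08 and 0.05), whereas in the warm controls they were at -1.31, -1.77 and -1.61. Of the 12, 10 fell in the warm controls (median -1.69).

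The receptor and chaperone of chaperone-mediated autophagy were not called. Lamp2, the receptor, matched, at 166, 177, 180.2 and 155 CPM in the controls and 151, 160.5 and 149 CPM in the warm knockouts (log2 fold change -0.15 ± 0.12). In the warm controls it was lower, at 76.4 to 106 CPM. Hspa8, the chaperone, was at 882, 1052, 691 and 799.5 CPM in the controls and 896, 922 and 1389.8 CPM in the warm knockouts, with TN_KO3 highest (log2 fold change 0.32 ± 0.19 (SE), adjusted p = 0.18), and at 1509 to 2429.8 CPM in the warm controls. Of 20 genes of this list, 4 rose, 4 fell and 11 matched (median -0.09), shares near the 23% and 20.6% of all genes tested; without TN_KO3 2 rose, and with TN_KO1 alone 1 rose and 3 fell. Hsp90aa1, a co-chaperone, was at 355, 348, 299 and 271 CPM in the controls and 733, 777 and 568 CPM in the warm knockouts (log2 fold change 1.12 ± 0.28 (SE), adjusted p = 0.0052). Mtor, the nutrient-sensing kinase that restrains autophagy, was at 223, 219, 199 and 219 CPM in the controls and 93.7, 125 and 89.9 CPM in the warm knockouts (log2 fold change -1.06 ± 0.14 (SE), adjusted p = 2.7e-05), and the sorting nexin Snx10 fell, with a log2 fold change of -0.97 ± 0.18 (adjusted p = 4.0e-04). Rac1, Eef1a1 and Hsp90ab1 matched (-0.10, 0.11 and 0.11).

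Lysosomal genes matched in 19 of 32 cases, against 34.1% of all genes tested. Of the 32, 7 rose and 8 fell, shares near the 23% and 20.6% of all genes tested. The median was -0.04, and 0.015 with TN_KO1 alone. In the warm controls 20 fell, 8 rose and 7 matched (median -0.65). Lamp1 was at 707, 643, 686 and 703 CPM in the controls and 662, 593 and 577 CPM in the warm knockouts (log2 fold change -0.17 ± 0.09), and Npc1, which exports cholesterol from lysosomes, at 65.6, 68.6, 61.9 and 64.5 CPM in the controls and 66.97, 70.2 and 56.1 CPM in the warm knockouts (-0.02 ± 0.13). Both matched, and in the warm controls they were at 369 to 419.9 CPM and 16.3 to 25.6 CPM. Ctsd, the protease with 2 E-boxes in its promoter, fell (log2 fold change -0.57 ± 0.16 (SE), adjusted p = 0.0087). The largest rises of the list were in genes known from phagocytes: cathepsin S (Ctss) was at 5.71, 4.81, 6.17 and 6.36 CPM in the controls and 94.9, 61.4 and 98.4 CPM in the warm knockouts (log2 fold change 3.88 ± 0.37 (SE), adjusted p = 6.2e-06), and Atp6v0d2, a proton pump subunit of macrophages and osteoclasts, at 0.414, 0.129, 0.252 and 0.173 CPM in the controls and 6.80, 5.52 and 11.9 CPM in the warm knockouts (log2 fold change 5.03 ± 0.64 (SE), adjusted p = 3.2e-05). Cd63, a membrane protein of late endosomes, was at 38.1, 28.8, 38.7 and 39.6 CPM in the controls and 107, 102 and 124 CPM in the warm knockouts (log2 fold change 1.61 ± 0.13 (SE), adjusted p = 5.8e-07). Ctss, Atp6v0d2 and Cd63 were higher in the warm controls as well, with log2 fold changes of 2.24, 3.80 and 1.18. The macrophage marker sum moved with these genes, as given below; its part in their rise was not tested.

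Bulk autophagy genes were near the controls, with 20 of 30 matched, 11 lower and 1 higher (median -0.22; warm controls 22 lower, median -0.53; TN_KO1 alone 6 lower). The single rise was Sqstm1, the p62 cargo receptor, at 172, 189, 180.2 and 198 CPM in the controls and 420.1, 274 and 311 CPM in the warm knockouts (log2 fold change 0.86 ± 0.19 (SE), adjusted p = 0.0018), while the warm controls had 139.5 to 199 CPM. Atg4d, a protease of the LC3 family's processing, was at 61.7, 62.7, 56.1 and 65.03 CPM in the controls and 33.7, 36.3 and 37.2 CPM in the warm knockouts (log2 fold change -0.78 ± 0.10 (SE), adjusted p = 1.7e-05). Becn1, Gabarap and Pink1, the mitophagy kinase linked to Parkinson disease, matched (-0.02, -0.03 and -0.04).

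Heat-shock genes rose in 7 of 19 cases and fell in 1, with 5 matched (median 0.23). Over all genes tested 23% rose, 20.6% fell and 34.1% matched. Only 4 of the heat-shock genes rose without RT_WT4 and 3 without TN_KO3. With TN_KO1 alone 2 rose and none fell (median 0.06); in the warm controls 12 rose (median 0.88). Crystallin alpha B (Cryab) was at 23.2, 24.2, 15.6 and 23.9 CPM in the controls and 41.8, 44.8 and 49.2 CPM in the warm knockouts (log2 fold change 1.06 ± 0.31 (SE), adjusted p = 0.014), and Hspa2 at 1.70, 1.50, 1.64 and 1.52 CPM in the controls and 4.47, 2.52 and 3.61 CPM in the warm knockouts (log2 fold change 1.16 ± 0.26 (SE), adjusted p = 0.002). Hspb1, which holds 2 element cores in its promoter, was at 88.5, 71.98, 80.3 and 69.5 CPM in the controls and 113, 103 and 119 CPM in the warm knockouts (log2 fold change 0.53 ± 0.18 (SE), adjusted p = 0.024). Its call was lost without RT_WT2, RT_WT4, TN_KO1 or TN_KO3, where the adjusted p was between 0.06 and 0.084. Hspa1a was at 3.72, 3.05, 1.39 and 1.73 CPM in the controls and 8.82, 5.18 and 52.8 CPM in the warm knockouts, far higher in TN_KO3 than in the other libraries; it is a near copy of Hspa1b and its counts are uncertain. Its call was lost without TN_KO3 (log2 fold change 1.51, adjusted p = 0.086). The regulator Hsf1 matched (-0.04), as did Hspa5, the chaperone of the endoplasmic reticulum (-0.08). Folding genes of that compartment matched in 19 of 22 cases, with 3 higher and 3 lower (1 and none with TN_KO1 alone). Sdf2l1, a small folding factor, was the clearest rise, at 1.65, 1.20, 1.55 and 0.909 CPM in the controls and 4.26, 2.40 and 5.27 CPM in the warm knockouts (log2 fold change 1.58 ± 0.34 (SE), adjusted p = 0.0014).

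**Figure D5:**
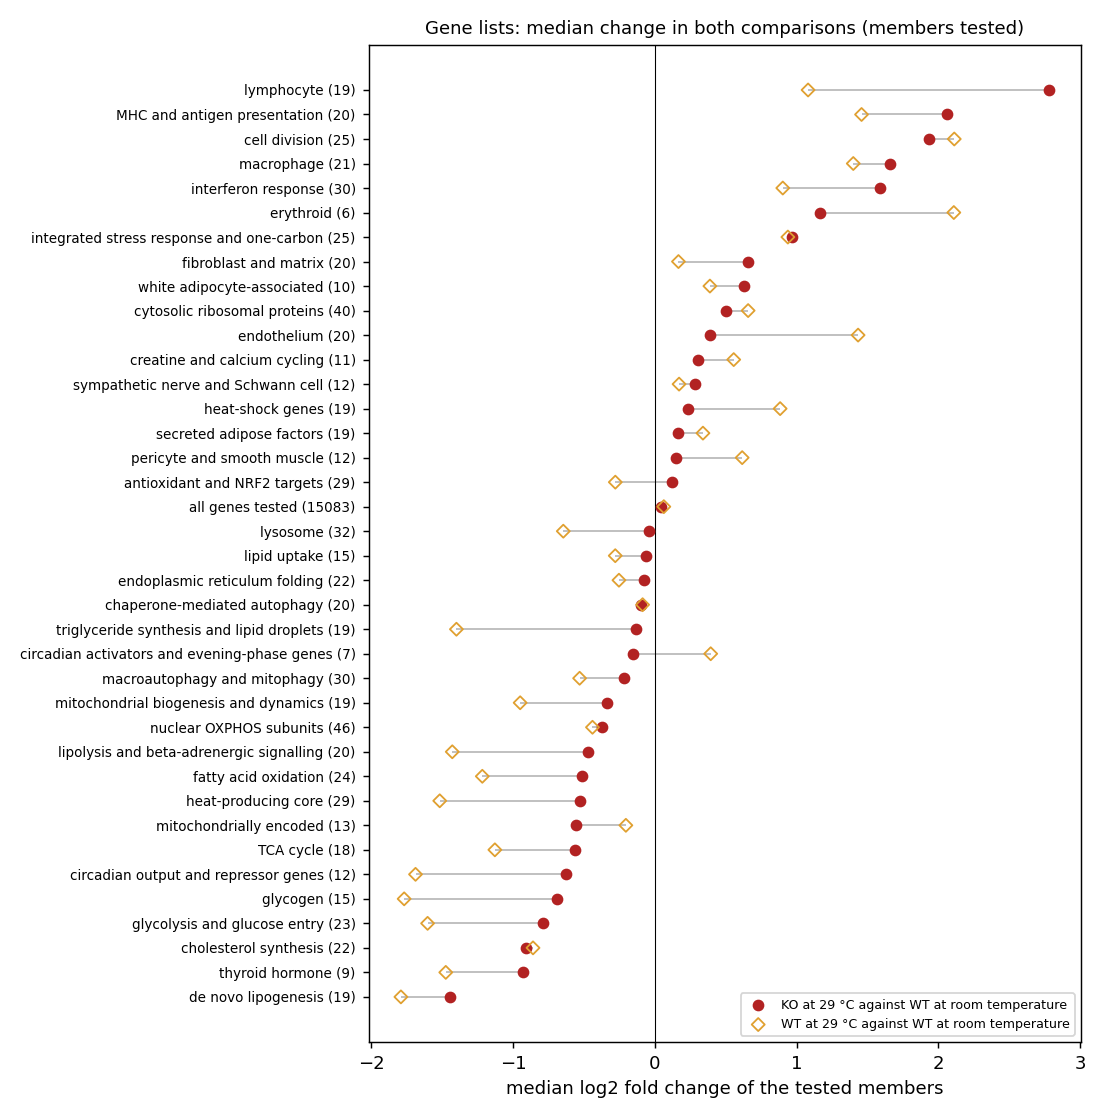
Median log2 fold change of each gene list (tested members in brackets) in the warm knockouts (filled) and the warm controls (open), both against the same controls; the muscle list is not drawn. Lipogenesis is lowest in the warm knockouts at -1.44 and the lymphocyte list highest of those drawn at 2.78; for the heat-producing list the 2 medians are -0.53 and -1.52.

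Antioxidant genes went both ways. Heme oxygenase 1 (Hmox1), a stress-induced enzyme, was at 7.74, 5.84, 11.3 and 6.54 CPM in the controls and 49.3, 29.9 and 44.96 CPM in the warm knockouts (log2 fold change 2.40 ± 0.28 (SE), adjusted p = 1.4e-05) and at 11.7 to 15.1 CPM in the warm controls. The mitochondrial peroxidase Prdx3 was at 445, 471, 454 and 436 CPM in the controls and 327, 295 and 230.04 CPM in the warm knockouts (log2 fold change -0.67 ± 0.10 (SE), adjusted p = 7.7e-05), and the mitochondrial superoxide dismutase Sod2 fell, with a log2 fold change of -0.57 ± 0.10 (adjusted p = 2.1e-04). G6pdx, which makes NADPH, fell, with a log2 fold change of -1.19 ± 0.18 (adjusted p = 9.7e-05). Nfe2l2, the transcription factor NRF2, matched (0.12 ± 0.13), together with Sod1 (-0.12) and the ferritin gene Fth1 (0.01). Of 29 genes 10 rose, 8 fell and 12 matched (median 0.12), against 23%, 20.6% and 34.1% of all genes tested. Only 6 rose without RT_WT1, RT_WT4, RT_KO3 or TN_KO1. With TN_KO1 alone 11 rose and 5 fell; in the warm controls 4 rose and 15 fell (median -0.28).

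Targets of the integrated stress response, in which Atf4 switches on amino acid and one-carbon genes, rose in 16 of 25 cases and fell in 1 (median 0.97; 12 rose with TN_KO1 alone). Gdf15, a stress hormone that lowers appetite, was at 0.290, 0.0429, 0.168 and 0.173 CPM in the controls and 34.4, 8.38 and 13.5 CPM in the warm knockouts (log2 fold change 6.76 ± 0.64 (SE), adjusted p = 4.2e-06). TN_KO1 was highest, and the warm controls lay between the groups at 0.848 to 2.74 CPM (log2 fold change 3.27). Mthfd2, a mitochondrial folate enzyme, was at 3.81, 2.88, 3.23 and 4.20 CPM in the controls and 28.00, 20.6 and 16.3 CPM in the warm knockouts (log2 fold change 2.62 ± 0.28 (SE), adjusted p = 5.1e-06) and at 3.84 to 9.26 CPM in the warm controls. Phgdh, the first enzyme of serine synthesis, was at 6.87, 5.50, 5.92 and 8.62 CPM in the controls and 70.2, 51.8 and 42.4 CPM in the warm knockouts (log2 fold change 3.03 ± 0.36 (SE), adjusted p = 2.9e-05), with 32.1 to 47.1 CPM in the warm controls. Aldh18a1, of proline synthesis, and Pck2 rose by log2 1.77 ± 0.19 and 1.25 ± 0.14 (adjusted p = 4.0e-06 and 5.1e-06). The single fall was Psph, the last enzyme of serine synthesis, at 38.5, 36.4, 38.5 and 41.99 CPM in the controls and 20.9, 17.96 and 15.1 CPM in the warm knockouts (log2 fold change -1.11 ± 0.13 (SE), adjusted p = 9.7e-06). Shmt2, Slc3a2 and Cebpb matched (0.15, -0.14 and -0.11). Over this list the medians of the warm knockouts and the warm controls, 0.97 and 0.94, lay close together.

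Cholesterol synthesis fell in 15 of 22 cases and rose in 1 (median -0.91, warm controls -0.86; 5 fell with TN_KO1 alone). Idi1, an isomerase of the isoprenoid steps, was at 72.4, 81.6, 67.9 and 73.8 CPM in the controls and 24.2, 17.7 and 16.1 CPM in the warm knockouts (log2 fold change -1.93 ± 0.24 (SE), adjusted p = 2.3e-05), and Pmvk and Nsdhl fell, with log2 fold changes of -1.77 ± 0.30 and -1.90 ± 0.24 (adjusted p = 3.5e-04 and 2.5e-05). The transcription factor Srebf2 and the methylsterol oxidase Msmo1 matched (-0.10 and -0.07).

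Cytosolic ribosomal protein genes rose in 37 of 40 cases, none fell, and 11 matched, with a median of 0.50 (warm controls 38 higher, median 0.66; TN_KO1 alone 39 higher). Rps6 was at 222, 206, 223 and 230.1 CPM in the controls and 444, 379 and 392 CPM in the warm knockouts (log2 fold change 0.88 ± 0.08 (SE), adjusted p = 1.6e-06). Several ribosomal protein genes have near-identical processed copies, so their counts carry that uncertainty. Cell division genes rose in 20 of 25 cases and none fell (median 1.93; 20 rose with TN_KO1 alone). Mki67, a marker of cycling cells, was at 0.910, 0.515, 0.462 and 0.866 CPM in the controls and 7.65, 4.58 and 11.8 CPM in the warm knockouts (log2 fold change 3.53 ± 0.41 (SE), adjusted p = 1.1e-05). Cdk1, the mitotic kinase, was at 0.290, 0.129, 0.126 and 0.130 CPM in the controls and 2.14, 1.47 and 2.84 CPM in the warm knockouts (log2 fold change 3.63 ± 0.39 (SE), adjusted p = 4.0e-06). Both overlapped the warm controls, which were at 6.66 to 12.2 CPM and 1.70 to 2.76 CPM. 

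Leptin (Lep), a hormone of white fat, was at 36.8, 7.64, 7.77 and 8.92 CPM in the controls and 178, 127 and 83.4 CPM in the warm knockouts, and RT_WT1 stood above the other controls (log2 fold change 3.08 ± 0.81 (SE), adjusted p = 0.0095). The warm controls were at 54.4 to 140.4 CPM, a range that overlaps the warm knockouts. Nnat, an imprinted gene of white adipocytes, was at 8.65, 7.73, 8.90 and 8.01 CPM in the controls and 40.4, 33.2 and 42.5 CPM in the warm knockouts (log2 fold change 2.22 ± 0.43 (SE), adjusted p = 0.0012), and Mest, another one tied to fat cell growth, at 0.910, 0.558, 0.965 and 0.779 CPM in the controls and 6.37, 1.47 and 5.72 CPM in the warm knockouts (log2 fold change 2.49 ± 0.39 (SE), adjusted p = 1.2e-04). For both the warm controls lay higher still, at 133 to 457 CPM and 8.56 to 15.1 CPM. Metrnl, a secreted factor of fat and muscle, rose by log2 1.57 ± 0.17 (adjusted p = 4.9e-06). Resistin (Retn) fell (log2 fold change -1.25 ± 0.32 (SE), adjusted p = 0.0071). Adiponectin (Adipoq) matched, at 769, 792, 890.3 and 677 CPM in the controls and 689, 859.95 and 611 CPM in the warm knockouts (log2 fold change -0.12 ± 0.13), with the batokine Nrg4 (-0.07) and Vegfa (0.10). Pparg, the transcription factor of all fat cells, was at 217, 255, 240.4 and 238 CPM in the controls and 243, 346 and 211 CPM in the warm knockouts (log2 fold change 0.17 ± 0.18 (SE), adjusted p = 0.49). Of 19 secreted factors 5 rose and 4 fell, shares near the 23% and 20.6% of all genes tested; 2 fell without RT_WT1, RT_WT2, TN_KO2 or TN_KO3, and 1 with TN_KO1 alone. Of 10 white adipocyte-associated genes 4 rose and 2 fell, against 23% and 20.6% of all genes tested. Their median was 0.63, and 0.71 with TN_KO1 alone. The genes Lep, Nnat, Mest and Retn are on both lists.

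Thyroid hormone genes fell in 6 of 9 cases and none rose (median -0.93, warm controls -1.48). The receptor Thrb was at 45.1, 59.2, 42.3 and 45.9 CPM in the controls and 29.2, 25.8 and 20.8 CPM in the warm knockouts (log2 fold change -0.93 ± 0.13 (SE), adjusted p = 3.3e-05). The target gene Thrsp fell, with a log2 fold change of -1.44 ± 0.22 (adjusted p = 9.8e-05). The importer Slc16a10 matched (-0.07).

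Apart from the muscle list, lymphocyte and antigen presentation genes had the highest medians of any list. All 19 tested lymphocyte genes rose, with a median of 2.78; 16 rose with TN_KO1 alone, and in the warm controls 9 rose (median 1.08). The 19 genes summed to 0.000598% to 0.000790% of counts in the controls and to 0.00690%, 0.00469% and 0.00652% in the warm knockouts. The warm controls lay between, at 0.00165% to 0.00271%. With 4 and 3 libraries the exact two-sided permutation p cannot go below 0.0286, the value found (0.0457 after adjustment over 16 sums). Cd3g, a T cell receptor subunit, was at 0.538, 0.258, 0.210 and 0.346 CPM in the controls and 6.44, 3.08 and 5.86 CPM in the warm knockouts (log2 fold change 3.91 ± 0.37 (SE), adjusted p = 1.6e-06). Cd2, an adhesion molecule of T and NK cells, was at 0.372, 0.472, 0.336 and 0.260 CPM in the controls and 3.80, 3.16 and 5.03 CPM in the warm knockouts (log2 fold change 3.45 ± 0.25 (SE), adjusted p = 2.8e-07). Cd3e was at 0.331, 0.0859, 0.336 and 0.130 CPM in the controls and 2.83, 1.24 and 2.36 CPM in the warm knockouts (log2 fold change 3.25 ± 0.47 (SE), adjusted p = 5.0e-05) and at 0.242 to 0.266 CPM in the warm controls, which overlapped the controls. Cd8a, of cytotoxic T cells, rose by log2 3.09 ± 0.38 (adjusted p = 1.0e-05), and Gzmb, a killing protease, by 2.86 ± 0.46 (adjusted p = 1.2e-04), both above all warm controls. The B cell gene Cd79a rose by log2 1.91 ± 0.41 (adjusted p = 0.0014) and was highest in TN_KO2; with TN_KO1 alone it was not called (log2 fold change 0.70, adjusted p = 0.33).

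Macrophage genes rose in 15 of 21 cases and fell in 2 (median 1.66; 15 rose and 1 fell with TN_KO1 alone). One of the falls is Lpl, an adipocyte gene that macrophages also express; without it the list summed to 0.0108% to 0.0151% of counts in the controls and to 0.0693%, 0.0492% and 0.0654% in the warm knockouts (exact permutation p = 0.0286). Trem2, a lipid-sensing receptor of lipid-associated macrophages, was at 0.331, 0.0429, 0.336 and 0.173 CPM in the controls and 6.70, 6.31 and 7.83 CPM in the warm knockouts (log2 fold change 4.94 ± 0.55 (SE), adjusted p = 8.6e-06). Gpnmb, often found with it, was at 0.910, 1.16, 1.22 and 0.952 CPM in the controls and 19.5, 22.9 and 41.04 CPM in the warm knockouts (log2 fold change 4.71 ± 0.49 (SE), adjusted p = 9.6e-06). C1qb, a complement subunit, was at 18.2, 11.4, 14.7 and 10.5 CPM in the controls and 91.8, 50.5 and 60.2 CPM in the warm knockouts (log2 fold change 2.30 ± 0.24 (SE), adjusted p = 5.7e-06). Gpnmb and C1qb were higher in the warm controls as well, with log2 fold changes of 3.55 and 1.48. Cd163, a scavenger receptor of resident macrophages, was not called (log2 fold change -0.13 ± 0.28), while in the warm controls it was at 1.24. The other fall was Mgl2, a lectin of resident macrophages and dendritic cells, at 10.8, 8.63, 9.40 and 8.79 CPM in the controls and 5.54, 4.21 and 3.47 CPM in the warm knockouts (log2 fold change -1.09 ± 0.19 (SE), adjusted p = 2.4e-04). The macrophage and lymphocyte sums moved with the antigen presentation and interferon genes described next; their part in those results was not tested.

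Antigen presentation rose throughout: 20 of 20 genes were higher (median 2.06), and all 20 with TN_KO1 alone. The warm controls had 18 higher (median 1.46). B2m, the light chain of class I molecules, was at 276, 210.4, 309.6 and 219 CPM in the controls and 1607, 832 and 1096 CPM in the warm knockouts (log2 fold change 2.21 ± 0.19 (SE), adjusted p = 8.1e-07) and at 508 to 604 CPM in the warm controls, so that the 3 groups did not overlap. The heavy chain H2-K1 was at 326, 272, 359 and 294 CPM in the controls and 1149.6, 647 and 918 CPM in the warm knockouts (log2 fold change 1.53 ± 0.15 (SE), adjusted p = 2.3e-06). Tap1 and Psmb9, the immunoproteasome gene whose window overlaps, were at 53.7, 28.1 and 33.3 CPM and 40.3, 16.1 and 21.2 CPM in the warm knockouts and 15.6, 12.3, 20.1 and 12.5 and 6.41, 4.55, 8.23 and 4.98 CPM in the controls. They rose by log2 1.35 ± 0.23 and 2.10 ± 0.30 (adjusted p = 3.4e-04 and 9.3e-05). The 2 windows overlap, but the genes lie on opposite strands, and the sources used here do not say whether the counting used strand. Class II genes rose too, with the invariant chain Cd74 at 54.7, 75.5, 56.7 and 73.9 CPM in the controls and 366, 235 and 319 CPM in the warm knockouts (log2 fold change 2.23 ± 0.29 (SE), adjusted p = 5.2e-05). H2 class I genes are near-identical in part, and their shares are uncertain.

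Interferon-response genes rose in 19 of 30 cases and none fell (median 1.59, warm controls 0.90). TN_KO1 led: the list summed to 0.226%, 0.127% and 0.104% of counts in TN_KO1, TN_KO2 and TN_KO3 and to 0.0326% to 0.0496% in the controls. A library of the room-temperature knockouts, RT_KO3, was also high, at 0.129%, and it enters the shared estimate of spread. Gbp2, a guanylate-binding protein induced by interferon gamma, was at 18.7, 14.1, 29.2 and 16.8 CPM in the controls and 215, 83.4 and 66.8 CPM in the warm knockouts (log2 fold change 2.63 ± 0.38 (SE), adjusted p = 1.3e-04). Cxcl10, a chemokine for T cells, was at 0.786, 0.945, 1.80 and 0.996 CPM in the controls and 36.4, 7.51 and 9.71 CPM in the warm knockouts (log2 fold change 3.98 ± 0.59 (SE), adjusted p = 1.5e-04). Igtp, another gamma-induced GTPase, was at 13.6, 13.8, 19.8 and 9.26 CPM in the controls and 187, 62.4 and 59.8 CPM in the warm knockouts (log2 fold change 2.87 ± 0.47 (SE), adjusted p = 4.0e-04). For these 3 the warm controls had 26.5 to 33.02 CPM, 1.78 to 3.75 CPM and 15.7 to 22.7 CPM.

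Among vascular and stromal genes the departures were smaller. Of 20 endothelial genes 8 rose (median 0.39; 2 with TN_KO1 alone, 4 without TN_KO3, 5 without RT_WT1, RT_WT2 or RT_WT3), against 20 in the warm controls (median 1.43). The median was 0.09 with TN_KO1 alone and 0.00 when TN_WT2 was left out as well. The 20 genes summed to 0.0924% to 0.112% of counts in the controls, 0.139%, 0.146% and 0.196% in the warm knockouts and 0.337% to 0.364% in the warm controls. Rgcc, an endothelial cell cycle regulator, was at 115, 147, 142 and 132 CPM in the controls and 241, 239 and 260.1 CPM in the warm knockouts (log2 fold change 0.88 ± 0.13 (SE), adjusted p = 6.6e-05), while the receptor Tek matched (log2 fold change -0.07 ± 0.13) against 1.26 in the warm controls. Of 12 pericyte and smooth muscle genes 1 fell, none rose and 4 matched. Fibroblast and matrix genes rose in 10 of 20 cases (median 0.66; 5 with TN_KO1 alone). Decorin (Dcn) was at 122, 105, 122 and 117 CPM in the controls and 237, 209 and 204 CPM in the warm knockouts (log2 fold change 0.90 ± 0.12 (SE), adjusted p = 2.3e-05) and Mfap5, a microfibril gene of fascia-type fibroblasts, at 1.61, 1.16, 2.52 and 1.08 CPM in the controls and 8.94, 7.85 and 9.08 CPM in the warm knockouts (log2 fold change 2.43 ± 0.32 (SE), adjusted p = 2.8e-05). Postn and Sparc matched (-0.17 and 0.05).

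Nerve and blood transcripts were checked as well. Of 12 tested nerve and Schwann cell genes 5 rose and 1 fell, against 23% and 20.6% of all genes tested. There were 3 rises without RT_WT2, RT_WT3, RT_WT4 or TN_KO3, and 2 without TN_KO1. The median was 0.28, and 0.25 with TN_KO1 alone. Ngfr, a neurotrophin receptor, was at 2.73, 1.46, 2.69 and 2.64 CPM in the controls and 1.19, 1.09 and 0.867 CPM in the warm knockouts (log2 fold change -1.17 ± 0.31 (SE), adjusted p = 0.0065). Th, Dbh and Npy, which define sympathetic fibres, did not pass the filter. Hemoglobin genes, which trace blood, rose: Hbb-bs was at 383, 497, 278 and 345 CPM in the controls and 1213, 657 and 1018 CPM in the warm knockouts (log2 fold change 1.36 ± 0.26 (SE), adjusted p = 8.1e-04), with 1473 to 2848 CPM in the warm controls, though hemoglobin copies share reads. All 6 erythroid genes were called, and 5 with TN_KO1 alone, but 3 without TN_KO1 or without TN_KO3.

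Muscle list members such as Tnnt3 (12.36) and Acta1 (9.81) had the largest called log2 fold changes of the genes named. The naming rule leaves that list and predicted genes out and asks for 1 CPM on average and groups that do not overlap; under it Mmp12 rose the most. This gene, a macrophage elastase, was at 0.207, 0.0859, 0.168 and 0.173 CPM in the controls and 21.5, 24.9 and 50.7 CPM in the warm knockouts (log2 fold change 7.63 ± 0.63 (SE), adjusted p = 2.1e-06). Slpi, a secreted protease inhibitor, was at 0.165, 0, 0.0420 and 0.0866 CPM in the controls and 6.66, 8.15 and 21.4 CPM in the warm knockouts (log2 fold change 7.26 ± 0.63 (SE), adjusted p = 1.4e-06), and the warm controls were at 0.233 to 0.657 CPM. Jchain, which joins secreted antibodies, was at 0.331, 1.25, 1.30 and 0.606 CPM in the controls and 82.2, 69.01 and 159 CPM in the warm knockouts (log2 fold change 6.88 ± 0.61 (SE), adjusted p = 4.7e-06). Rgs1, a brake on chemokine signals in lymphocytes, rose by log2 6.92 ± 0.67, Ubd, an interferon-induced ubiquitin-like modifier, by 5.75 ± 0.66, the plasma cell gene Mzb1 by 5.38 ± 0.48 and the chemokine Ccl8 by 4.86 ± 0.82 (adjusted p at most 4.4e-04). Mzb1 in the warm controls was at 0.139 to 0.266 CPM, against 2.97, 3.91 and 5.58 CPM in the warm knockouts. Asb5 and Mybpc2 also met the rule, but both are muscle genes outside that list, at 0.190, 3.34 and 6.34 CPM and 0.475, 15.4 and 37.8 CPM in TN_KO1, TN_KO2 and TN_KO3, and neither was called by limma-voom (adjusted p = 0.1 and 0.25).

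The falls given next are among the 12 largest by the same rule. Cyp1a1, a target of the aryl hydrocarbon receptor, was at 23.7, 34.6, 32.7 and 52.8 CPM in the controls and 0.998, 2.22 and 1.07 CPM in the warm knockouts (log2 fold change -4.68 ± 0.57 (SE), adjusted p = 4.1e-05), below the warm controls at 3.39 to 8.64 CPM. Dnajc22, a J-domain membrane protein, was at 2.28, 1.63, 2.48 and 2.47 CPM in the controls and 0.238, 0.0376 and 0.0693 CPM in the warm knockouts (log2 fold change -4.07 ± 0.48 (SE), adjusted p = 8.8e-06). Car14, a membrane carbonic anhydrase, was at 20.9, 18.5, 19.3 and 20.7 CPM in the controls and 1.33, 1.73 and 2.29 CPM in the warm knockouts (log2 fold change -3.49 ± 0.23 (SE), adjusted p = 9.2e-08), overlapping the warm controls at 1.45 to 2.05 CPM. Adprhl1, Tfr2, Rims4 and Atp4b fell, with log2 fold changes of -3.97 ± 0.74, -3.32 ± 0.50, -3.19 ± 0.58 and -3.09 ± 0.53 (adjusted p at most 9.4e-04). The fructose transporter Slc2a5 was at 37.2, 25.9, 15.9 and 62.8 CPM in the controls and 3.97, 4.92 and 3.85 CPM in the warm knockouts (log2 fold change -3.06 ± 0.89 (SE), adjusted p = 0.016). Its call was lost without TN_KO1 (adjusted p = 0.052) or TN_KO3 (adjusted p = 0.054).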

How the data were processed

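Brown fat RNA from 15 libraries was sequenced on a BGIseq500 as paired-end reads, per the labels. The deposited table holds expected counts per gene for 24030 symbols, estimated by the authors with RSEM 1.2.28 on STAR 2.7.10a alignments to mm10, and DESeq2 (given as 1.3.40) is also listed, per the submitters' processing notes. The sources used here do not say whether the counting used strand. Expected counts were rounded to whole numbers. The 24 symbols that a spreadsheet had turned into dates were given no values.

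Counts were filtered with edgeR's filterByExpr (minimum count 10), scaled by the TMM method and fitted in edgeR 4.0.16 (R 4.3.3) with the robust quasi-likelihood test over all 15 libraries, so that all groups share 1 estimate of spread. The contrast was warm knockouts minus controls, with warm controls minus controls beside it. Genes with a Benjamini-Hochberg adjusted p under 0.05 were called, and a match was a 95% interval within 1.5-fold. CPM are counts per 1000000 of the TMM-scaled library size. Distances used log2 CPM with a prior count of 1. Sums of marker genes were compared by exact two-sided permutation tests. On simulated data the scripts were checked for recovery of known changes.

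The members and the 41 gene lists were chosen with earlier results of these data known. Genes named are a fixed core set, the 12 largest rises and the 12 largest falls (called, at least 1 CPM on average, no overlap between groups, without muscle list members and predicted genes), up to 4 genes per list with the smallest p and 3 closest to no change, and the 6 most abundant muscle genes; some genes under that rule are not reported here. The genes Cd3e, Cd74, Ctsd, Gpnmb, Gzmb, Hspb1, Igtp, Lamp1, Mgl2, Phgdh, Psmb9, Psph and Sqstm1 fall outside that rule and were chosen after their values were seen. Alternatives were other scalings, filters, thresholds, tools (DESeq2 1.42.0 and limma 3.58.1 with voom), libraries and thinned counts. Same-numbered controls and warm knockouts did not deviate together (3 pairs, r from -0.15 to 0.04), so replicate numbers were not taken to pair libraries. Promoter windows came from RefSeq on GRCm38.p6, which is the same assembly as mm10.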

Additional observations from a re-analysis of the deposited data

Results flagged for a closer look

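Over 234 groups of 4 libraries, 1 library stood far from the other 3 in 20, by Dixon's criterion at its 95% level; chance flags about 1 in 20 groups. The skeletal muscle share of TN_WT2 was 0.283% of counts, against at most 0.0141% in the other warm controls, and the 6 defining muscle genes made up 0.119% there. The macrophage share (without Lpl) of TN_WT1 was 0.0329%, below 0.0441% to 0.0462% in the others. The fibroblast share of RT_WT2 was 0.134%, below 0.151% to 0.154%.

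Single genes were examined in the room-temperature controls only. RT_WT1 was high for Lep (36.8 CPM), Irf4 (131 CPM), Cdk1 (0.290 CPM) and Ckm (0.621 CPM) and low for Aqp7 (168 CPM). RT_WT2 was high for Hadha (2363 CPM) and Pygb (109 CPM) and low for Cd63 (28.8 CPM) and Ngfr (1.46 CPM). RT_WT3 was high for Esrrg (30.4 CPM) and Pink1 (269 CPM) and low for Cryab (15.6 CPM), Gbe1 (375 CPM) and Mogat1 (7.22 CPM). RT_WT4 alone had counts of Ryr1 (0.173 CPM) and Tnnt3 (0.0433 CPM).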

How the results depend on the processing

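The total of 6582 called genes, the 3476 higher, the 3106 lower and the 5138 matches each stayed within 1.5 times under other scalings, filters, tools (DESeq2 6751 called, limma-voom 6524), the 7 libraries alone, thinned counts, removal of muscle or mitochondrial genes and each single left-out library. Leaving out 1 library gave 5206 (TN_KO3) to 6949 (TN_WT4) calls; without RT_KO3 there were 3031 higher and 3610 lower. Without TN_KO2 and TN_KO3 there were 3804 calls, 2147 higher and 1657 lower, and 3346 matches. Without the 3 libraries with muscle transcripts there were 3858 calls, 1800 higher and 2058 lower, and 2893 matches; both settings have fewer samples. At an adjusted p under 0.01, 4333 genes were called, 2260 of them higher. With a fold over 1.5 also required, 4141 were called, 1522 of them lower; the stricter rule itself sets these counts. With the replicate number as a block 6458 genes were called, and of 202 named genes Cidea gained its call and Lpl lost it; the numbers share no stated animal or day. Without TN_KO2 and TN_KO3, 23 named genes lost their call and none changed direction. Hspb1 lost its call with no filter on low counts, as did Ryr1. With limma-voom 8 named genes lost theirs, 7 of them from muscle (Acta1, Asb5, Atp2a1, Mybpc2, Pygm, Ryr1, Tnnt3) and Hspa1a. A lone TN_KO1 leaves small differences undetectable, and genes under 1 CPM rest on few counts.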
